A study of Mus musculus with 8 samples.

Results

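The 35 genes described here encode the chaperones, disulfide enzymes, stress sensors, stress-response factors, degradation components and translocation components of the endoplasmic reticulum (ER), the compartment in which secreted and membrane proteins are folded. They were taken by name from a list of ER folding and stress genes, and all 35 were found among the 19945 genes of a single-cell RNA-seq count table of islets. The list holds 11 chaperones and co-chaperones, 5 disulfide enzymes, 6 sensors and transcription factors, 4 targets of the integrated stress response, 7 genes of ER-associated degradation and 2 genes of the translocation machinery.

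The islets came from wild-type mice that had been given either vehicle or FAKi, the focal adhesion kinase inhibitor PF562271, at 50 mg/kg in 2 doses per day for 3 weeks, and they were isolated 10 days after the last dose. Islets of 5 mice were pooled for each condition and made into 1 droplet library, so there were no replicates, and every interval given is a 95% interval that covers counting error only. The vehicle library held 3776 cells with a median of 10101.5 UMIs (unique molecular identifiers, each standing for 1 captured transcript) and the FAKi library 3183 cells with a median of 13688 UMIs, while 4 cell barcodes occurred in both. The comparisons were made between the deposited β-cell clusters 0 (650 vehicle and 675 FAKi cells), 1 (305 and 546) and 10 (121 and 115), α-cells (273 and 434), the acinar class 2 (86 and 114) and 8 further cell types or clusters with at least 50 cells in each library.

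Insulin transcripts made up 56.4% and 56.8% of the UMIs of β-cell cluster 0 in the vehicle and FAKi libraries and 47.1% and 46.4% of those of cluster 10, and 24 acinar markers together made up 74.1% and 73.8% of those of acinar class 2. Acinar class 1 was shallow, with a median of 1480 and 1140 UMIs per cell, and gave 14.7% and 23.4% of its UMIs to insulin. The 28 FAKi cells deposited as T cells gave 42.6% of their UMIs to insulin, and they entered no comparison. One cluster deposited with the δ-cells, cluster 8, had *Ppy* as its leading hormone and is called the *Ppy*-high cluster here. All levels are given as CPM, a gene's UMIs divided by all UMIs of its class and scaled to the same total. Each gene is compared only with itself in other cells. CPM does not correct for the few secreted products that take up so much of these cells' RNA. They lower the CPM of every other gene in those cells, which enters the order of the classes below.

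Proteins that enter the ER are bound by chaperones such as *Hspa5* (BiP), oxidised by disulfide isomerases and, if they fail to fold, returned to the cytosol and degraded. Unfolded protein is sensed by *Ern1* (IRE1), *Eif2ak3* (PERK) and *Atf6*, which raise the transcription of these same genes through *Xbp1*, *Atf4* and ATF6 itself, a programme called the unfolded protein response. β-cells and acinar cells are both professional secretory cells, one for proinsulin and the other for digestive zymogens, and both are known to depend on this response.

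The regulatory letters of the response are known as the ER stress response element (ERSE, CCAAT and CCACG with 9 bases of any kind between them), a shorter form (ERSE-II, ATTGGNCCACG) and an amino acid response element bound by ATF4 complexes (TGATGNAA). RefSeq promoters of mouse build GRCm38.p6, from 250 bases before to 50 bases after each gene's start, were available for 31 of the 35 genes, *Hyou1*, *Manf*, *Atf6* and *Derl1* being the others, and *Ero1lb* was matched under its current name Ero1b. Searched on both strands, ERSE was found in 10 of these 31 promoters and in 0.119% of all 32851 promoters. The 10 genes were *Hspa5*, *Hsp90b1*, *Calr*, *Canx*, *Dnajc3*, *Creld2*, *Pdia6*, *Ero1lb*, *Syvn1* and *Derl3*. ERSE-II was found in *Dnajb11* and *Herpud1* and in 0.0365% of all promoters. The amino acid response element was found in *Trib3*, *Asns*, *Chac1* and *Herpud1* and in 3.97% of all promoters. A further element, TGACGTGG, was in none of the 31 and in 0.676% of all promoters. The matches of 5 genes are shown because the levels of their genes separate the cell types or conditions below, with the element in capitals, which reads as the reverse complement where it lies on the other strand. They are *Hspa5* (chr2:34772020-34772048, plus strand), *Ero1lb* (chr13:12565662-12565720, plus strand) and *Derl3* (chr10:75893222-75893280, plus strand) with ERSE, *Herpud1* (chr8:94386357-94386407, plus strand) with ERSE-II, and *Chac1* (chr2:119351029-119351076, plus strand) with the amino acid response element.
Hspa5: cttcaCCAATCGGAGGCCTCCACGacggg
Ero1lb: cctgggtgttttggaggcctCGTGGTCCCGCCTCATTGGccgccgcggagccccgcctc
Derl3: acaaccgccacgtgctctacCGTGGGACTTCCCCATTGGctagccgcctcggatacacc
Herpud1: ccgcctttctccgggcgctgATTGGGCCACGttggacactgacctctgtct
Chac1: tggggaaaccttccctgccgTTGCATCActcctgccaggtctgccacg
A match is a description of these letters and was not tested as a binding site.

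No single cell type had the highest level of all 35 genes, but the β-cell clusters 0 and 10 had the highest summed level in both libraries. In the vehicle library the sum was highest in β-cell cluster 10 at 8207 CPM (8111–8303), followed by cluster 0 at 7805, fibroblasts at 7321, cluster 1 at 7097, macrophages at 6380 and δ-cell cluster 6 at 6275 CPM. It was lowest in acinar class 2 at 2404 CPM (2320–2490). The FAKi cells had their highest sum again in cluster 10, at 7379 CPM (7285–7474), next to cluster 0 at 7250 CPM (7217–7284), while acinar class 2 was again lowest at 2975 CPM (2889–3063). Of the 14 cell types or clusters, acinar class 2 had the lowest level of 20 genes in the vehicle library and of 17 in the FAKi library. It also had the highest level of 5 genes in the vehicle library, *P4hb*, *Asns*, *Sel1l*, *Edem1* and *Derl3*, and of these 5 and *Chac1* in the FAKi library. How many of all genes had their lowest or highest level there was not counted. Of all genes compared in the vehicle and FAKi libraries, 92.2% and 91.4% were at least 1.5-fold lower in acinar class 2 than in β-cells. The heat map of levels by cell type shows these blocks.

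**Figure D1:**
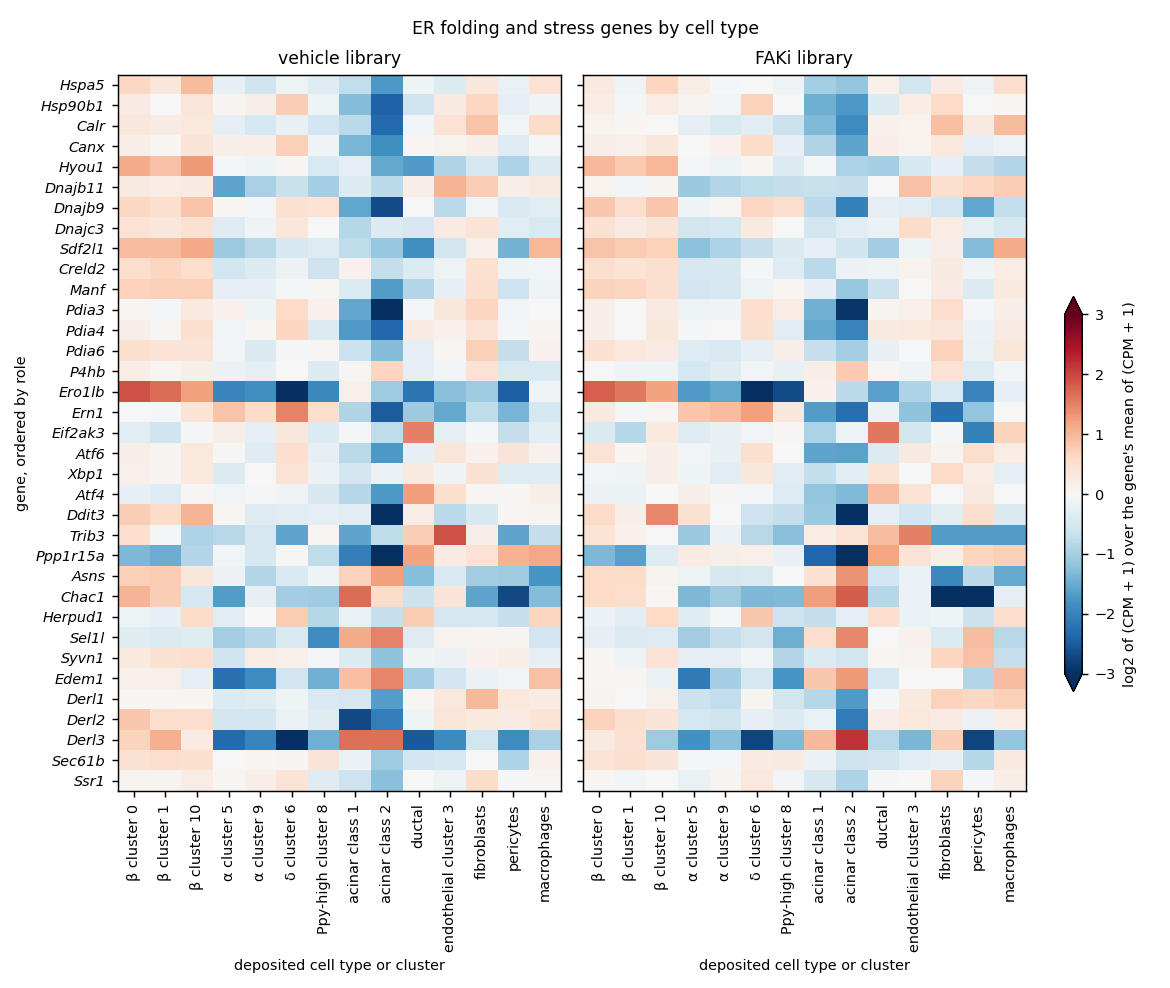
Level of the 35 genes in 14 deposited cell types or clusters of the vehicle (left) and FAKi (right) libraries, as log2 of (CPM + 1) over the gene's mean of (CPM + 1) across the classes of that library, red above and blue below the mean. The row of Ero1lb is red in the 3 β-cell clusters, from 938 CPM in cluster 0 of the vehicle library, and dark blue in δ-cell cluster 6, at 16.5 CPM. The column of acinar class 2 is blue in most rows but red for Sel1l, Edem1 and Derl3.

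Among the chaperones, *Hspa5*, the ER member of the HSP70 family, was highest in β-cell cluster 10 of the vehicle library at 1534 CPM (1493–1576). Cluster 0 followed at 1212 CPM (1198–1227), macrophages at 1075 (1017–1135), cluster 1 at 1007 (984–1030) and fibroblasts at 999.5 CPM (961–1039), the last 3 of which had overlapping intervals. The remaining classes ran from 725 CPM in ductal cells through 706 in δ-cell cluster 6, 691 in pericytes, 663 in α-cell cluster 5, 609 in the *Ppy*-high cluster, 598 in endothelial cluster 3, 519 in α-cell cluster 9 and 473 in acinar class 1 to 237 CPM in acinar class 2. The order of the FAKi classes differed in the middle. Cluster 10 was still highest at 1261 CPM (1222–1301), with macrophages at 1158 (1067–1256) overlapping it, and it was followed by cluster 0 at 986, fibroblasts at 949.6, α-cell cluster 5 at 942 and ductal cells at 889 CPM. Cluster 1 fell to the middle of the order at 728 CPM (712–744), below δ-cell cluster 6 at 809 and α-cell cluster 9 at 769 CPM and beside pericytes at 717 and the *Ppy*-high cluster at 715 CPM. Endothelial cluster 3 at 547, acinar class 1 at 393 and acinar class 2 at 350 CPM (320–381) closed it. The other chaperones had their highest level in several kinds of cell. *Hsp90b1* (GRP94) and *Canx* (calnexin) were highest in δ-cell cluster 6 of both libraries, at 1012 and 982 CPM and at 357 and 309.5 CPM, and fibroblasts overlapped it for *Hsp90b1*. *Hyou1*, a nucleotide exchange factor of BiP, and *Dnajb9*, a co-chaperone of BiP, were highest in cluster 10 of both libraries, but in the FAKi library cluster 0 overlapped it, with 147 against 144 CPM for *Hyou1* and 236 against 233 CPM for *Dnajb9*. *Dnajb11*, another co-chaperone, was highest in endothelial cluster 3 at 138 and 126 CPM, overlapped by the next class in both libraries, and lowest in α-cell cluster 5 at 22.0 and 30.9 CPM.

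Of the disulfide enzymes, *Ero1lb*, the pancreatic oxidase that reoxidises the isomerases, was the most restricted. In the vehicle library its level was 938 CPM (926–951) in β-cell cluster 0, 796 (776–817) in cluster 1 and 586 (560–612) in cluster 10, intervals that did not overlap. The next classes were acinar class 1 at 275 CPM and macrophages at 229 CPM, both of which held 14.7% and 10.8% of insulin UMIs, and what part of the *Ero1lb* UMIs came with that insulin was not tested. It stood at 118 CPM in acinar class 2, 118 in fibroblasts, 103 in endothelial cluster 3, 69.1 in α-cell cluster 9, 64.3 in the *Ppy*-high cluster, 61.9 in α-cell cluster 5, 53.9 in ductal cells and 44.3 in pericytes, and it was lowest in δ-cell cluster 6 at 16.5 CPM (11.7–22.6). Insulin took 6.12% of vehicle UMIs in fibroblasts, 5.71% in endothelial cluster 3, 2.22% in ductal cells, 1.97% in pericytes and 0.641% in acinar class 2. Its part in those *Ero1lb* levels was not tested either. In the FAKi library the order of the β-cell clusters was the same, at 792, 679 and 525 CPM. The other FAKi values were 248 CPM in acinar class 1, 191 in macrophages, 164 in fibroblasts, 131 in acinar class 2, 119 in endothelial cluster 3, 77.8 and 69.0 in α-cell clusters 9 and 5, 72.7 in ductal cells, 56.4 in pericytes, 34.3 in the *Ppy*-high cluster and 18.1 CPM in δ-cell cluster 6. The isomerases were spread otherwise. *P4hb*, the founding protein disulfide isomerase, was highest in acinar class 2 at 303 and 335 CPM, overlapped by fibroblasts, while *Pdia3* (ERp57) and *Pdia6* were highest in fibroblasts of both libraries and lowest in acinar class 2. For *Pdia3* the interval of δ-cell cluster 6 overlapped that of fibroblasts in both libraries.

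The stress sensors peaked in different classes. *Ern1*, the sensor that splices *Xbp1*, was highest in δ-cell cluster 6 at 64.2 and 47.7 CPM, overlapped by α-cell cluster 9 in the FAKi library, and lowest in acinar class 2 at 3.10 and 3.32 CPM, where it had 4 and 5 UMIs. *Eif2ak3* was highest in ductal cells of both libraries at 53.1 and 59.9 CPM, overlapped by macrophages in the FAKi library, and *Atf6* in δ-cell cluster 6 of the vehicle library at 50.8 CPM and in pericytes of the FAKi library at 44.3 CPM, with overlapping intervals between these 2 classes. *Xbp1*, the factor activated by IRE1, varied little between neighbouring classes. In the vehicle library it ran from 99.2 CPM (69.1–138) in acinar class 1 through 110 in α-cell cluster 5, 111 in pericytes, 113 in macrophages, 129.6 in acinar class 2, 129.9 in the *Ppy*-high cluster, 136 in endothelial cluster 3, 145 in α-cell cluster 9, 155 in β-cell cluster 1, 161 in cluster 0, 175 in ductal cells and 182 in cluster 10 to 198 in δ-cell cluster 6 and 199.7 CPM (183–218) in fibroblasts, and neighbours in this order overlapped. In the FAKi library it ran from 80.3 CPM in acinar class 1 through 106.1 in the *Ppy*-high cluster, 106.4 in α-cell cluster 9, 108 in acinar class 2, 110.1 in macrophages, 122 in α-cell cluster 5, 124 and 126 in β-cell clusters 1 and 0, 134 in endothelial cluster 3, 155 in cluster 10, 157 in pericytes, 169 in δ-cell cluster 6 and 179 in ductal cells to 200.2 CPM in fibroblasts.

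*Atf4*, the factor translated when eIF2α is phosphorylated, was highest in ductal cells, with 439 CPM (422–455) in vehicle and 343 (319–369) in FAKi ductal cells, above the other 13 classes. Endothelial cluster 3 came next at 255 and 242 CPM, and macrophages at 208 and 181, fibroblasts at 193 and 181 and pericytes at 188 and 217 CPM lay near the endocrine classes. Those had 188 and 178 CPM in β-cell cluster 10, 155 and 159 in cluster 0, 141 and 157 in cluster 1, 179 and 184 in α-cell cluster 9, 174 and 202 in α-cell cluster 5, 168 and 176 in δ-cell cluster 6 and 132 and 137 CPM in the *Ppy*-high cluster. Acinar class 1 with 102 and 78.9 CPM and class 2 with 55.1 and 71.0 CPM were lowest. *Ddit3* (CHOP), which ATF4 induces, was highest in β-cell cluster 10, at 126 CPM (114–138) in the vehicle and 183 CPM (168–198) in the FAKi library. Cluster 0 had 102 and 99.03 CPM and cluster 1 had 90.1 and 75.1 CPM. Outside the β-cells *Ddit3* stood at 72.0 and 53.9 CPM in ductal cells, 65.0 and 49.2 in macrophages, 64.3 and 91.6 in α-cell cluster 5, 62.6 and 96.7 in pericytes, 49.5 and 40.1 in the *Ppy*-high cluster, 49.0 and 42.7 in δ-cell cluster 6, 48.2 and 29.9 in acinar class 1, 46.4 and 67.5 in α-cell cluster 9, 43.7 and 53.0 in fibroblasts and 34.4 and 44.3 CPM in endothelial cluster 3. It was lowest in acinar class 2, with 5.43 and 4.64 CPM from 7 UMIs in each library.

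The targets of the integrated stress response did not follow 1 pattern. *Ppp1r15a* (GADD34), which directs the dephosphorylation of eIF2α, was highest in ductal cells at 444 and 364 CPM, overlapped by macrophages in the vehicle library, and lowest in acinar class 2 at 9.31 and 19.2 CPM. *Asns*, asparagine synthetase, had its maximum where *Ppp1r15a* had its minimum, at 86.1 and 90.9 CPM in acinar class 2. *Chac1*, an enzyme that degrades glutathione, had no more than 28.5 CPM in any of the 14 classes, and *Trib3*, a pseudokinase that binds ATF4, no more than 10.4 CPM. In the degradation group *Derl3*, a derlin of the ER membrane, had its highest level of the 14 classes in acinar class 2 of both libraries, with intervals that overlapped those of acinar class 1. Its level was 25.6 CPM (17.6–36.0) and 29.2 (21.2–39.2) in acinar class 2, 25.5 and 12.2 in acinar class 1, 12.5 and 7.06 in β-cell cluster 0, 16.8 and 8.20 in cluster 1 and 9.07 and 2.22 CPM in cluster 10. Fibroblasts had 4.77 and 10.3 CPM from 12 and 6 UMIs, the second above the 3 FAKi β-cell clusters though its interval (3.77–22.3) held the levels of clusters 0 and 1, macrophages 3.33 and 1.97, the *Ppy*-high cluster 2.12 and 1.70, pericytes 1.30 and 0, endothelial cluster 3 1.245 and 1.61, α-cell cluster 9 1.13 and 1.82, α-cell cluster 5 0.688 and 0.916 and ductal cells 0.480 and 2.76 CPM. No *Derl3* UMI was found in δ-cell cluster 6 of either library, which allowed up to 1.60 and 1.42 CPM. In the lymphocyte classes, left out of the 14 for having fewer than 50 FAKi cells, vehicle B cells had 23.7 CPM from 15 UMIs. FAKi B cells, of which there were only 9, had 0. Vehicle T cells had 16.2 CPM from 16 UMIs, but 14 of these came from a single cell. The FAKi cells deposited as T cells, with 42.6% of their UMIs on insulin, had 15.7 CPM from 9 UMIs. *Herpud1*, which recruits the degradation complex, was highest in δ-cell cluster 6 at 321 and 299.9 CPM, and *Sel1l* and *Edem1*, 2 further parts of that pathway, in acinar class 2 at 165 and 175 CPM and at 102 and 75.0 CPM. The next class, ductal cells, overlapped for *Herpud1* in the vehicle library, and the next class overlapped for *Sel1l* and *Edem1* in both. Of the translocation genes, *Sec61b*, a subunit of the channel through which proteins enter the ER, was highest in β-cell cluster 1 at 384 and 477 CPM, and *Ssr1*, a subunit of the translocon-associated complex, in fibroblasts at 123 and 135 CPM. Cluster 10 overlapped for *Sec61b* in the vehicle library and δ-cell cluster 6 for *Ssr1* in both.

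β-cells, with the 3 clusters summed, had higher CPM of much of this machinery than α-cells. A gene was called higher or lower where its CPM ratio reached 1.5-fold in that direction and the groups together held at least 100 of its UMIs. In the vehicle library 18 of the 34 genes with enough UMIs were higher in β-cells, against 8.05% of the 10220 genes compared, and 2 were lower, against 48.1%. Of the 35 genes compared in FAKi cells, 17 were higher, against 6.80% of 10528 genes, and 2 lower, against 54.4%. The median log2 ratio was 0.61 and 0.48, with -0.52 and -0.60 over all genes compared. Insulin took up most β-cell UMIs, which lowers the CPM of every other gene there. Counted from the all-gene median, 27 of 34 and 31 of 35 were higher, against 16.9% and 16.5% of all genes, and 1 was lower in each library, against 14.4% and 15.0%. The summed ratio was 1.58 (1.56–1.61) and 1.43 (1.41–1.44). Without the 20 most abundant genes in the totals the all-gene median moved to 0.10 and 0.11, and 30 of 34 and 32 of 35 genes were then higher, against 22.5% and 22.3% of all genes, and 0 and 1 lower, against 12.8% and 13.5%.

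In all, 14 of the 35 genes were higher in β-cells than in α-cells of both libraries. *Ero1lb* had the largest mean difference, with 871 against 63.6 CPM in the vehicle library, a ratio of 13.7 (12.1–15.6), and 738 against 71.4 CPM in the FAKi library, a ratio of 10.3 (9.40–11.4). *Derl3* followed with a ratio of 16.6 (5.63–80.6) and 5.995 (2.87–15.1), which rested on 3 and 7 UMIs in α-cells. Plasma-cell markers summed to 1019 CPM in β-cells and 6.07 in α-cells of the vehicle library, and to 0.834 and 2.83 CPM in the FAKi library. Their part in the *Derl3* ratio was not tested. *Edem1*, a lectin that draws misfolded glycoproteins to degradation, stood at 38.6 against 7.39 CPM and at 31.3 against 8.49 CPM, ratios of 5.22 and 3.69. *Chac1* stood 5.86 and 4.50 times higher from 7 and 15 UMIs in α-cells. *Sdf2l1*, a cofactor of BiP and *Dnajb11*, was 3.99 (3.42–4.67) and 3.94 (3.49–4.47) times higher. The other 9 were *Dnajb11*, *Derl2*, *Manf*, *Hyou1*, *Creld2*, *Asns*, *Dnajc3*, *Pdia6* and *Sel1l*, with ratios from 1.53 to 3.26. By role, 8 of 11 and 7 of 11 chaperones and 5 of 7 degradation genes in each library were higher in β-cells, while 2 of 5 disulfide enzymes, 1 of 6 and 0 of 6 sensors and factors, 2 of 3 and 3 of 4 integrated stress response targets and neither of the translocation genes were.

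The 2 genes that were lower in β-cells past 1.5-fold were *Ppp1r15a* and *Ern1*, and *Atf4* and *Eif2ak3* were below 1 in both libraries without reaching that limit. *Ppp1r15a* was at 76.2 CPM in β-cells and 169.9 in α-cells of the vehicle library, a ratio of 0.449 (0.411–0.490), and at 64.2 and 188 CPM in the FAKi library, a ratio of 0.342 (0.319–0.368). *Ern1* had ratios of 0.583 and 0.609, but 0.924 and 1.03 without the 20 most abundant genes, and counted from the all-gene median *Ppp1r15a* was the 1 gene lower in each library. A list of 10 genes known to rise during tissue dissociation was also lower in β-cells, 6 and 10 of the 10 past 1.5-fold, with summed levels of 5824 against 10241 CPM and 4538 against 14132 CPM, and its part in the ratio of *Ppp1r15a* was not tested. *Hspa5* differed between the libraries, at 1201 CPM in β-cells and 630 in α-cells of the vehicle library, a ratio of 1.91 (1.83–1.99), but at 935 and 895 CPM in the FAKi library, a ratio of 1.05 (1.02–1.08). Of the wider pathway, 121 further ER and stress-response genes could be compared in each library. Of them 23 and 21 were higher in β-cells, against 8.05% and 6.80% of all genes, and 21 and 25 lower, against 48.1% and 54.4%. By the mean log2 ratio of both libraries, the 3 highest were *Atf5*, a stress-response factor, with ratios of 10.2 and 9.45, *Nupr1*, a stress-induced chromatin protein, with 7.51 and 3.04, and *Bhlha15* (Mist1), a factor of secretory cells, with 3.24 and 7.83. By the same mean, the 3 lowest were *Atf3*, a stress- and dissociation-induced factor, with 0.161 and 0.0665, *Psat1*, an enzyme of serine synthesis, with 0.117 and 0.0826, and *Prdx4*, an ER peroxiredoxin, with 0.180 and 0.211.

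**Figure D2:**
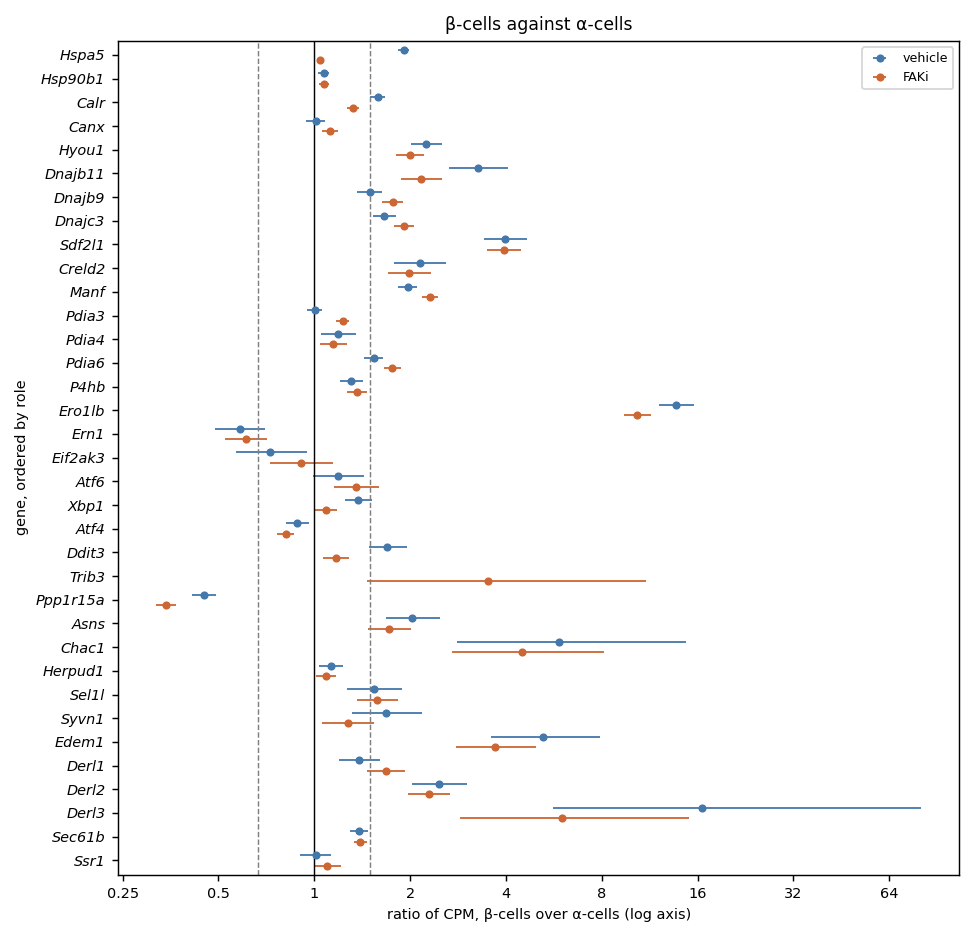
Ratio of CPM in β-cells over α-cells for each gene with at least 100 UMIs, on a log axis, in the vehicle (blue) and FAKi (orange) libraries, with 95% counting intervals as bars and dashed lines at 1.5-fold. Ero1lb lies farthest right among the precisely measured genes at 13.7 and 10.3, Ppp1r15a farthest left at 0.449 and 0.342, and the 2 points of Hspa5 lie apart at 1.91 and 1.05.

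Acinar class 2 had lower CPM than β-cells for most of the 35 genes, as for most genes of the table. In the vehicle library 26 of 34 were lower, against 92.2% of 9845 genes, and 3 higher, against 2.24%. Among FAKi cells 25 of 35 were lower, against 91.4% of 9968 genes, and 6 higher, against 2.40%. The median log2 ratio was -1.74 and -1.41, with -2.04 and -1.88 over all genes. Counted from that all-gene median, 13 of 34 and 17 of 35 were higher, against 28.3% and 27.2%, and 8 and 5 lower, against 27.1% and 26.6%. The all-gene median rose to -1.32 and -1.24 without the 20 most abundant genes, and 8 of 34 and 10 of 35 were then higher, against 6.63% and 6.60% of all genes, and 19 and 15 lower, against 73.8% and 72.2%.

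The 3 genes higher in acinar class 2 of both libraries were all degradation genes. *Sel1l*, the scaffold of the HRD1 ubiquitin ligase, was at 165 against 44.7 CPM and 175 against 51.3 CPM, ratios of 3.70 (3.19–4.28) and 3.41 (2.99–3.88). *Edem1* had 102 against 38.6 CPM and 75.0 against 31.3 CPM, and *Derl3* 25.6 against 13.1 CPM and 29.2 against 6.98 CPM, a ratio of 1.95 (1.33–2.79) and 4.18 (2.97–5.77). *P4hb*, *Asns* and *Chac1* were past 1.5-fold in the FAKi library alone, at 1.78, 1.77 and 2.54, with 1.38, 1.46 and 0.789 in the vehicle library. The ligase itself, *Syvn1* (HRD1), which acts with *Sel1l*, was lower, at 0.313 and 0.646, but at 0.657 and 1.27 without the 20 most abundant genes, and counted from the all-gene median it was higher in the FAKi library. In all, 25 genes were lower in both libraries, all 11 chaperones among them, in a comparison where most genes of the table were lower. Counted from the all-gene median, the chaperones *Dnajb11*, *Dnajc3* and *Creld2* were instead higher in both libraries. Without the 20 most abundant genes *Dnajc3* had 1.18 and 1.19, *Dnajb11* 0.986 and 1.15 and *Creld2* 0.844 and 1.245. By the mean log2 ratio of both libraries, the 5 lowest were *Ddit3* at 0.0532 and 0.0468, *Pdia3* at 0.0793 and 0.116, *Dnajb9* at 0.0973 and 0.143, *Derl2* at 0.132 and 0.141 and *Ero1lb* at 0.135 and 0.178. *Xbp1* did not reach 1.5-fold, with 129.6 against 162 CPM and 108 against 128 CPM. Among 119 and 120 pathway genes 8 and 12 were higher, against 2.24% and 2.40% of all genes, and 92 and 87 lower, against 92.2% and 91.4%. *Pdia2*, the pancreas-specific isomerase, had 828 against 3.85 CPM and 984 against 6.15 CPM, *Nupr1* ratios of 11.2 and 19.3, and *Prdx4* of 7.78 and 13.1. Lowest by that mean were *Wfs1* (wolframin) at 0.0603 and 0.0290, *Pdia5* at 12.5 CPM in vehicle β-cells and 1.55 in acinar class 2, and *Creb3l2* at 0.102 and 0.161.

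Cluster 1 and cluster 0 of the β-cells differed little in these genes. The clusters had been made from the same expression values, so this comparison and the next are descriptions, and both use cluster 0 as the reference. No gene of the 34 and 35 compared reached 1.5-fold in either direction, against 0.906% of all genes higher and 3.68% lower in the vehicle library, and 0.836% higher and 2.71% lower in the FAKi library. Ratios were above 1 for 7 of 34 and 3 of 35 genes, against 3090 of the 9490 and 3528 of the 9685 genes compared in all. The summed ratio was 0.909 (0.900–0.918) and 0.884 (0.876–0.892). The median log2 ratio was -0.10 and -0.16, beside -0.09 and -0.07 over all genes. *Hspa5* had 1007 CPM in cluster 1 and 1212 in cluster 0 of the vehicle library, and 728 and 986 CPM in the FAKi library, ratios of 0.831 (0.809–0.852) and 0.738 (0.720–0.757). *Hsp90b1* had 0.848 and 0.824, and *Ero1lb* 0.849 and 0.858. *Ddit3* had 0.880 (0.805–0.960) and 0.758 (0.699–0.821). *Derl3* had the highest ratio, 1.34 (1.07–1.66) and 1.16 (0.889–1.51), and *Sec61b* had 1.05 and 1.06. Markers of plasma cells, which express *Derl3* strongly, stood at 4687 CPM in vehicle cluster 1 and 3.27 in vehicle cluster 0, and at 0.645 and 0.780 CPM in the FAKi clusters. Without the 3 vehicle cells that had at least 1% of their UMIs on them the *Derl3* ratio was 1.28 (1.02–1.59). A list of 10 dissociation genes summed to 0.768 and 0.737 times its cluster 0 level, δ-cell markers to 3.08 and 1.18 and PP-cell markers to 5.50 and 1.31 times. The part of these lists was not tested. Acinar markers were 51.7 and 23.2 times higher in cluster 1 than in cluster 0, and 148 of 305 and 272 of 546 of its cells had at least 1% of their UMIs on them. Without those cells there was again no call, and the median log2 ratio was -0.15 and -0.20, with -0.16 and -0.13 over all genes. The isomerase *Pdia2* was the pathway gene higher in cluster 1 of both libraries, at 14.7 against 0.397 CPM and 17.1 against 1.39 CPM, and of 119 pathway genes in each library no other was higher and 1 and 2 were lower.

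Cluster 10 of the β-cells and cluster 0 differed past 1.5-fold in both libraries in *Herpud1*, *Ero1lb* and *Chac1*. In the vehicle library 1 of 34 genes was higher, against 10.8% of 9312 genes, and 2 lower, against 2.74%. In the FAKi library 4 of 34 were higher, against 13.0% of 9280 genes, and 3 lower, against 2.83%. The median log2 ratio was 0.11 and -0.02, below the all-gene 0.18 of both libraries, and the summed ratio was 1.05 (1.04–1.06) and 1.02 (1.00–1.03). Counted from the all-gene median, 0 and 3 of the 34 were higher, against 4.11% and 5.14%, and 3 and 4 lower, against 3.95% and 4.28%. The all-gene median was -0.01 and -0.04 without the 20 most abundant genes.

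*Herpud1* was higher in both libraries, at 279 against 171 CPM in vehicle, a ratio of 1.63 (1.52–1.75), and 259 against 151 CPM in FAKi cells, a ratio of 1.72 (1.59–1.86). Counted from the all-gene median it passed 1.5-fold in the FAKi library alone, and without the 20 most abundant genes in neither, at 1.43 and 1.46. *Ero1lb* was lower in both, at 586 against 938 CPM, 0.624 (0.596–0.654), and 525 against 792 CPM, 0.663 (0.630–0.697). *Chac1* was also lower, at 0.288 (0.147–0.512) and 0.650 (0.410–0.987), from 12 and 24 UMIs in cluster 10. *Ppp1r15a*, *Ddit3* and *Eif2ak3* passed 1.5-fold in the FAKi library alone. *Ppp1r15a* had 122 against 62.3 CPM there, 1.96 (1.75–2.20), and 103 against 74.9 CPM in the vehicle library, 1.38 (1.23–1.55). *Ddit3* had 183 against 99.03 CPM, 1.84 (1.68–2.02), and 126 against 102 CPM, 1.23 (1.10–1.36). *Eif2ak3*, the kinase upstream of both, had 1.70 (1.30–2.19) and 1.21 (0.895–1.60), and it did not pass in the FAKi library when counted from the all-gene median or without the 20 most abundant genes, at 1.44. *Derl3* was lower in the FAKi library, at 2.22 against 7.06 CPM, 0.314 (0.124–0.662). The factor *Xbp1*, by contrast, had ratios of 1.13 and 1.23, and *Hspa5* of 1.27 (1.23–1.30) and 1.28 (1.24–1.32).

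Cluster 10 also held transcripts of other islet cells, and 12 of its 121 vehicle and 18 of its 115 FAKi cells were called doublets, against 0 of 650 and 0 of 675 in cluster 0. Without called doublets *Herpud1* had 1.70 and 1.91 and *Ero1lb* 0.641 and 0.666. Lists of α-, δ- and PP-cell markers summed to 31.1, 188 and 269 times their cluster 0 level in the vehicle library and 22.1, 110 and 174 times in the FAKi library, and 48 of 121 and 42 of 115 cells had at least 1% of their UMIs on *Gcg*, *Sst*, *Ppy* and *Pyy*. The dissociation genes summed to 1.24 and 1.84 times their cluster 0 level, with 2 and 10 of 10 past 1.5-fold. When the cells with 1% or more of those hormones were left out, a choice made after the data were seen, 73 cells of cluster 10 remained in each library. *Hspa5* then stood at 1906 against 1212 CPM and 1522 against 986 CPM, 1.57 (1.52–1.63) and 1.54 (1.49–1.60), *Herpud1* at 1.91 and 1.96 and *Ppp1r15a* at 1.56 (1.34–1.80) and 2.20 (1.92–2.50). *Ddit3* stood at 1.498 (1.31–1.70) in the vehicle library, just under the limit, and at 2.44 (2.21–2.70) in the FAKi library. The ratios of these 4 genes were larger without the hormone-mixed cells than with them in both libraries. *Ero1lb* stood at 0.673 and 0.642, and *Eif2ak3* no longer passed 1.5-fold in the FAKi library, at 1.33 (0.915–1.88). The part of the dissociation genes was not tested. Of 118 pathway genes 8 and 6 were higher, against 10.8% and 13.0% of all genes, and 5 and 3 lower, against 2.74% and 2.83%. *Atf3* had 164 against 93.0 CPM and 231 against 60.2 CPM, *Txnip*, an inhibitor of thioredoxin, ratios of 2.22 and 2.98 and *Prdx4* of 2.45 and 2.24, and *Phgdh*, *Atf5* and *Nupr1* were lower in both, at 0.386 and 0.200, 0.483 and 0.543, and 0.447 and 0.605.

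**Figure D3:**
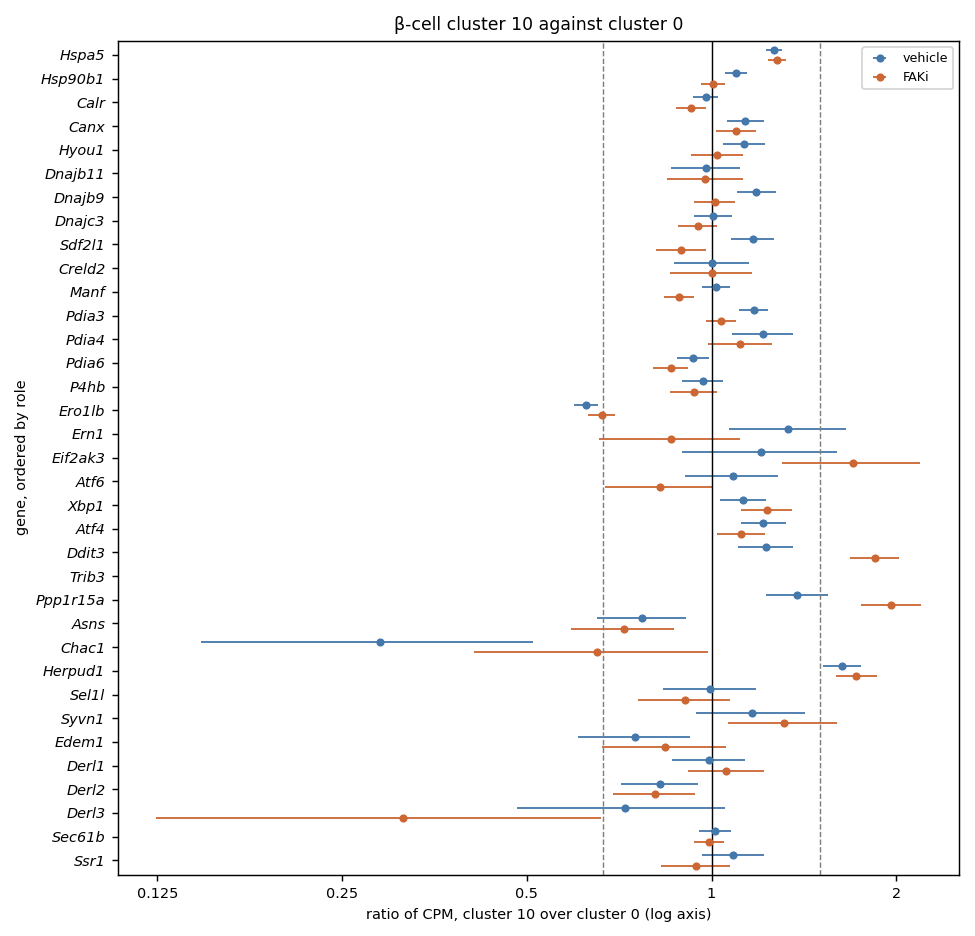
Ratio of CPM in β-cell cluster 10 over cluster 0 for each gene with at least 100 UMIs, on a log axis, in the vehicle (blue) and FAKi (orange) libraries, with 95% counting intervals and dashed lines at 1.5-fold. Herpud1 lies right of the upper line in both libraries at 1.63 and 1.72, Ddit3 and Ppp1r15a in FAKi cells only at 1.84 and 1.96, and Ero1lb lies left of the lower line at 0.624 and 0.663. Trib3 had too few UMIs to be drawn.

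Between FAKi and vehicle, *Derl3* was the gene of the 35 that reached 1.5-fold in β-cell clusters 0 and 1 among those with at least 100 UMIs. With 1 library per condition these ratios compare the 2 libraries. In cluster 0, 0 of 35 genes were higher, against 1.35% of 10300 genes, and 1 lower, against 3.21%. In cluster 1, 0 of 34 were higher, against 1.57% of 8030, and 1 lower, against 2.90%. In cluster 10, 0 of 32 were higher or lower, against 1.75% and 2.60% of 5314. The 1 lower call in each of clusters 0 and 1 lies near the share of all genes, so it describes *Derl3* and not the 35 genes as a group. *Derl3* had 284 UMIs in vehicle and 172 in FAKi cells of cluster 0, that is 12.5 and 7.06 CPM, a ratio of 0.563 (0.463–0.683). It had 16.8 and 8.20 CPM in cluster 1, 0.489 (0.367–0.648), and 31 and 7 UMIs in cluster 10, 0.244 (0.0909–0.566), under the limit of 100 UMIs. *Chac1*, also under that limit in cluster 10, had 24 FAKi and 12 vehicle UMIs, 2.17 (1.04–4.75), and *Trib3* 7 and 2 UMIs, 3.79 (0.722–37.4). Cells with a *Derl3* UMI numbered 151 of 650 and 111 of 675 in cluster 0, whose median depths were 34677 and 34237 UMIs. Without the 3 vehicle cells rich in plasma-cell markers, an exclusion chosen after the data were seen, the *Derl3* ratio in cluster 1 was 0.511. In cluster 0 those markers stood at 3.27 and 0.780 CPM and no cell had 1% of its UMIs on them. Markers of acinar cells were higher in FAKi cluster 0, at 472 against 242 CPM, and lower in FAKi cluster 1, at 10929 against 12494 CPM. The part of the plasma-cell and acinar markers in the *Derl3* ratio of cluster 0 was not tested.

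Below 1.5-fold, *Hspa5*, *Calr*, *Hyou1* and *Xbp1* had lower CPM in FAKi cells of all 3 β-cell clusters. The summed ratio was 0.929 (0.923–0.935), 0.903 (0.893–0.914) and 0.899 (0.884–0.915) in clusters 0, 1 and 10, and the median log2 ratio -0.05, -0.16 and -0.14, beside -0.04, -0.01 and -0.02 over all genes. *Hspa5* had 986 against 1212 CPM in cluster 0, 728 against 1007 in cluster 1 and 1261 against 1534 in cluster 10, ratios of 0.813 (0.799–0.827), 0.723 (0.700–0.746) and 0.822 (0.789–0.857). *Calr*, the calcium-binding lectin calreticulin, had 0.763, 0.787 and 0.721. *Hyou1* had 0.761, 0.790 and 0.688. *Xbp1* had 0.781 (0.745–0.820), 0.797 (0.736–0.864) and 0.853 (0.756–0.961). *Ero1lb* was also below 1 in all 3, at 0.844 (0.827–0.860), 0.853 (0.824–0.883) and 0.896 (0.839–0.956). Ratios above 1 were found for 11 of 35, 9 of 34 and 6 of 32 genes, against 4348 of 10300, 3829 of 8030 and 2505 of 5314 genes compared in all. *Hsp90b1* had 0.985, 0.958 and 0.905, closer to 1, and *Dnajb9*, a gene that XBP1 induces, 1.12, 1.02 and 0.962. *Sec61b* was above 1 in all 3 clusters, at 1.24 (1.20–1.27), 1.24 (1.19–1.30) and 1.21 (1.12–1.30). *Ddit3* differed by cluster, at 0.967 (0.913–1.02) in cluster 0, 0.833 (0.751–0.925) in cluster 1 and 1.45 (1.28–1.65) in cluster 10, and it reached 1.58 (1.35–1.84) in the cells of cluster 10 without other hormones. Of the pathway genes *Atf3* was lower in cluster 0 at 0.648 and in cluster 1 at 0.606. It was the 1 call among 118 in cluster 0, and 3 of 117 in cluster 1 and 2 of 101 in cluster 10 were lower and none higher. Of all genes, 3.21%, 2.90% and 2.60% were lower in clusters 0, 1 and 10. The dissociation genes summed to 0.763, 0.732 and 1.14 times their vehicle level in clusters 0, 1 and 10, and their part in these ratios was not tested.

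**Figure D4:**
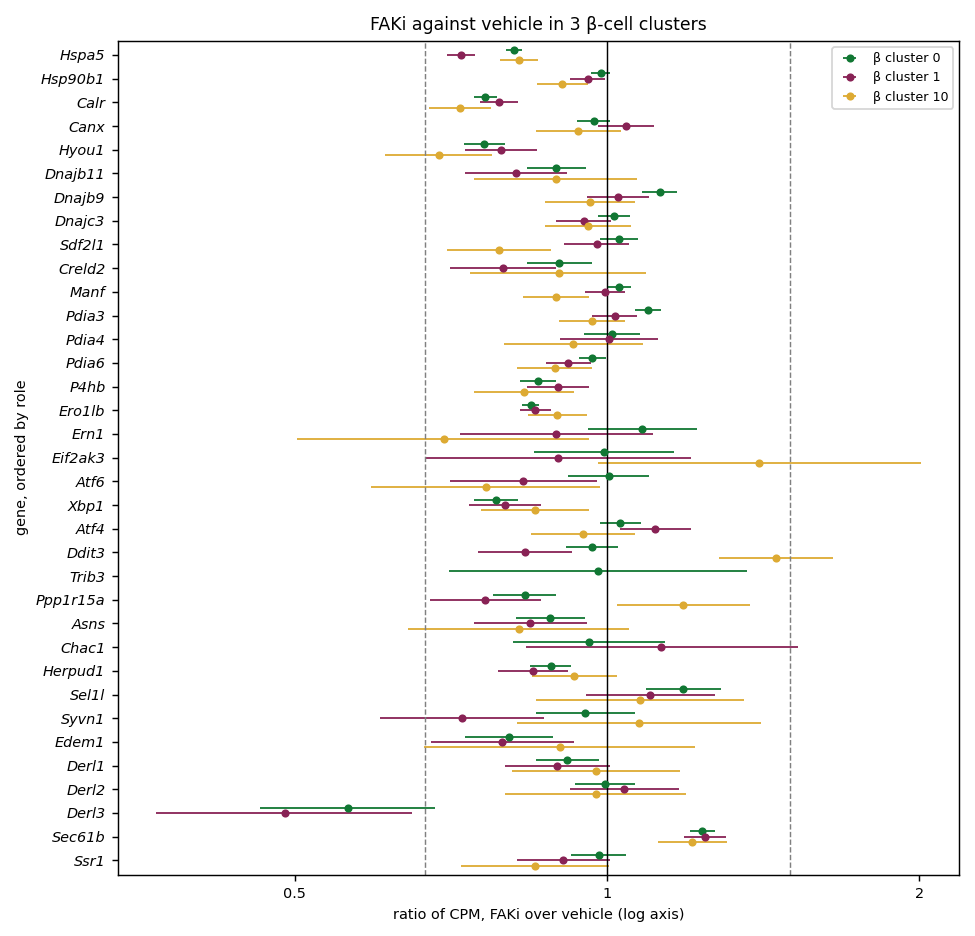
Ratio of CPM in FAKi over vehicle cells for each gene with at least 100 UMIs in β-cell clusters 0 (green), 1 (purple) and 10 (yellow), on a log axis, with 95% counting intervals and dashed lines at 1.5-fold. Derl3 lies left of the lower line in clusters 0 and 1 at 0.563 and 0.489, Sec61b lies at 1.21 to 1.24 in all 3, and Ddit3 lies at 1.45 in cluster 10 but at 0.967 and 0.833 in the other two. Derl3 in cluster 10 had too few UMIs to be drawn.

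*Hspa5* was above 1 in 8 of the 14 classes and below 1 in 6, which were the 3 β-cell clusters, acinar class 1, endothelial cluster 3 and fibroblasts. In α-cells, 0 of 31 genes were higher, against 3.18% of 7808, and 0 lower, against 1.59%, and the summed ratio was 1.01 (0.994–1.03). *Hspa5* had 895 against 630 CPM there, 1.42 (1.35–1.49), with 1.42 and 1.48 in α-cell clusters 5 and 9, above 1 where the 3 β-cell clusters were below it. *Ddit3* had 85.0 against 60.2 CPM, 1.41 (1.21–1.66). *Atf3* was 1.76 times higher and the dissociation genes summed to 1.38 times their vehicle level, and 5 of 112 pathway genes were higher and none lower. PP-cell markers summed to 0.401 and acinar markers to 1.18 times their vehicle level in α-cells. The part of these lists in the α-cell ratios was not tested. In acinar class 2, 5 of 20 genes were higher, against 8.21% of 548, and 0 lower, against 3.47%, and the summed ratio was 1.24 (1.18–1.30). *Sec61b* had 221 against 126 CPM, 1.75 (1.44–2.12), *Hsp90b1* 182 against 112 CPM, 1.63 (1.33–2.01), and *Sdf2l1* 65.7 against 41.1 CPM, 1.60 (1.13–2.27). *Pdia3* and *Manf* were the others, at 1.54 and 1.501, and *Hspa5* had 1.47 (1.28–1.70). Both hormone and dissociation transcripts were also higher in FAKi acinar class 2, with β-cell markers at 1.37, α-cell markers at 1.94, δ-cell markers at 1.80, PP-cell markers at 1.43 and dissociation genes at 1.37 times their vehicle sum, and their part was not tested. Of 40 pathway genes *Prdx4* and *Spcs3*, a signal peptidase subunit, were higher, at 1.57 and 1.62. Across all 14 classes *Sec61b* was above 1 in every one, from 1.09 in fibroblasts to 1.75, with the interval above 1 in 11. *Atf6* was below 1 in 13 of 14, with the interval below 1 in 2.

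Shares of cells with a UMI were compared for 4 genes of the response. Every cell was thinned to 2000 UMIs and shallower cells were left out. A *Ddit3* UMI was then found in 19.6% (12.7–28.2) of 112 vehicle and 33.3% (24.7–42.9) of 111 FAKi cells of cluster 10, and in 18.8% (15.8–22.0) of 650 and 16.0% (13.3–19.0) of 675 cells of cluster 0. Before thinning these shares were 76.0% and 78.3% in cluster 10 and 80.5% and 79.7% in cluster 0. In acinar class 2, the class with the lowest level of the gene, the thinned share was 1.19% and 0.926%, at median depths of 8171.5 and 8159 UMIs against 28010 and 28044 in cluster 10. *Xbp1* was found in 28.9% (25.5–32.6) of vehicle and 19.7% (16.8–22.9) of FAKi cells of cluster 0, and in 25.9% and 27.9% of cluster 10. *Atf4* was found in 60.3% (55.8–64.7) and 49.7% (41.5–57.9) of ductal cells, and in 10.7% and 13.9% of acinar class 2. *Ppp1r15a* was found in 49.5% and 40.5% of ductal cells, 12.2% and 10.1% of β-cell cluster 0, 17.9% and 24.3% of cluster 10, and 1.19% and 2.78% of acinar class 2. These genes are used by nearly all cell types, so no class of the islet is known to lack them, and shares near those of acinar class 2 cannot be told from free RNA.

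**Figure D5:**
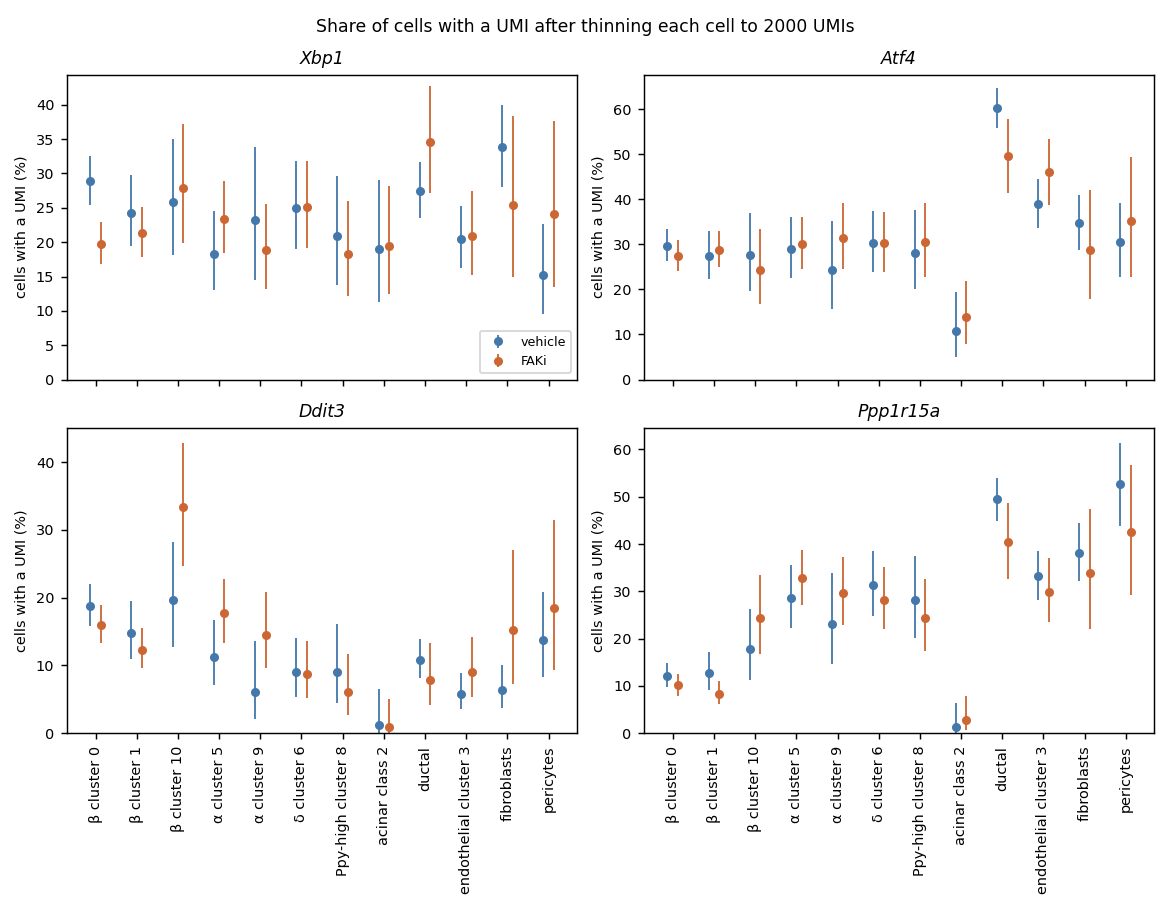
Share of cells with at least 1 UMI of Xbp1, Atf4, Ddit3 and Ppp1r15a, in percent, in 12 deposited cell types or clusters after thinning to 2000 UMIs per cell, in the vehicle (blue) and FAKi (orange) libraries, with exact binomial 95% intervals. The Ddit3 points of cluster 10 lie at 19.6% and 33.3%, Atf4 is highest in ductal cells at 60.3% and 49.7%, and acinar class 2 lies at or below 2.78% for Ddit3 and Ppp1r15a.

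Pairs of the 35 genes were weakly and mostly positively correlated from cell to cell within β-cell cluster 0. After thinning to 10000 UMIs, 26 and 27 of the 35 genes had a mean of at least 0.5 UMI in the 640 vehicle and 674 FAKi cells kept. Spearman's rho between pairs of these genes had a median of 0.0580 and 0.0724, with 0.00801 and 0.00912 over pairs of the 1447 and 1425 genes at that mean, and 78.2% and 84.6% of the pairs were above 0, against 57.4% and 58.4%. The pair with the highest mean rho of both libraries was *Dnajb9* and *Manf*, a secreted folding factor, at 0.347 and 0.387. *Sdf2l1* and *Manf* followed at 0.250 and 0.356, *Manf* and *Pdia6* at 0.268 and 0.331, and *Hspa5* and *Hsp90b1* at 0.355 and 0.221. For comparison, 1% of all gene pairs lay above 0.119 and 0.128. Lowest by that mean were *Ero1lb* and *Asns*, at -0.152 and -0.00728. The cells of a library share its preparation and their depth was fixed by thinning, and these values are given as a description over cells of 1 pool.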

How the data were processed

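Islets of 5 mice per condition were made into 1 droplet 3′ library each, and the 8 samples were read as 4 sequencing lanes of each library. According to the study's methods, the authors produced UMI counts with Cell Ranger and filtered cells with Seurat 3.1 by detected genes and mitochondrial share, and the submitters' notes name the build mm10. The deposited counts are raw UMI counts. A deposited column holds the mitochondrial percent per cell, at most 8.00%. Of 8832 and 8437 cells loaded, the table holds 3776 vehicle and 3183 FAKi cells with 59514118 and 57836783 UMIs. Cell types and clusters are the authors', and 5 further columns were not used.

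The members and all lists were chosen with earlier results of these data known. The motif letters, the split of deposited types by cluster and the name of the *Ppy*-high cluster were chosen after the data were seen. UMIs were summed per class and library and divided by the total (CPM). With 1 library per condition no test was possible. Levels carry exact Poisson, ratios exact conditional binomial and shares Clopper-Pearson 95% intervals, which cover counting error only. Medians used log2 of CPM + 1. Calls needed a 1.5-fold ratio and 100 UMIs over both groups. Scrublet, run through scanpy 1.11.5, marked 68 vehicle and 57 FAKi cells as doublets, which stayed in except in 1 alternative. *Hspa5*, *Xbp1*, *Atf4*, *Ddit3*, *Derl3* and *Ero1lb* were named in every class. Other members were named per comparison as up to 5 in each direction past 1.5-fold in both libraries by the mean log2 ratio, or up to 3 for FAKi over vehicle, and pathway genes as the 3 highest and 3 lowest. Intervals were also run on counts simulated with counting error alone, the error they assume. That run therefore cannot speak to variation between cells or libraries. Ratios and intervals came from scipy 1.17.1 under python 3.11.15, and figures from matplotlib 3.10.9.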

Additional observations from a re-analysis of the deposited data

Results flagged for a closer look

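Each result below is a FAKi over vehicle ratio of a gene whose direction past 1.5-fold, with an interval clear of 1, was opposite in different cell classes. The differences between classes were not tested, and with 1 library per condition they have no replicate check. *Ppp1r15a* had a ratio of 2.07 in acinar class 2, from 29 FAKi and 12 vehicle UMIs, but 0.625 in macrophages and 0.634 in pericytes. *Derl3* had a ratio of 5.75 in ductal cells, from 6 FAKi and 3 vehicle UMIs. It had 0.563, 0.489 and 0.244 in β-cell clusters 0, 1 and 10. The acinar ratio of *Ppp1r15a* and the ductal and cluster 10 ratios of *Derl3* lie under the UMI limit used for calls. All ratios here were picked from every gene of the list in every class compared. Insulin took 2.22% of vehicle and 4.92% of FAKi UMIs in ductal cells, and acinar markers took 0.643% and 1.23%. Their part in the ductal *Derl3* ratio was not tested.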

How the results depend on the processing

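Counts of genes past 1.5-fold stayed within 1.5 times their reported value in 99 of 119 alternatives. Ratios of single genes moved by more than their interval in 121 of 641 cases and crossed 1 with a call lost in 8. All 8 came from leaving the 20 most abundant genes out of the totals. Over β-cells in acinar class 2, *Dnajc3* then had 1.18 and *Herpud1* 1.36 in the vehicle library, and *Dnajb11* 1.15, *Dnajc3* 1.19, *Creld2* 1.245, *Syvn1* 1.27 and *Ssr1* 1.00 in the FAKi library, while *Ern1* had 1.03 in FAKi β-cells over α-cells. The same setting raised the calls of FAKi β-cells over α-cells to 33, with 22.3% of all genes higher and 13.5% lower under it. Shares of all genes are not given for the settings that follow, so their counts show only how far the calls depend on the setting. A limit of 2-fold lowered the calls to 11 and 10 for β-cells over α-cells in the vehicle and FAKi libraries, to 1 in each library for cluster 10 over cluster 0, and to 0 for FAKi over vehicle in cluster 0 and in acinar class 2. At 1000 UMIs or more there were 4 calls for cluster 10 over cluster 0 in the FAKi library and 0 for FAKi over vehicle in clusters 0 and 1, since *Derl3* was then below the limit. At 20 UMIs or more there was 1 call for cluster 1 over cluster 0 in the vehicle library, *Trib3*, and there were 2 and 10 for FAKi over vehicle in cluster 10 and acinar class 2. Means over cells of each cell's CPM gave 3 calls for FAKi over vehicle in cluster 1 and 3 in cluster 10. For that comparison in cluster 10, leaving out called doublets gave 1 call, cells with under 5% mitochondrial UMIs 1, and cells with under 1% of other hormones 2. The hormone limit, added after the data were seen, gave 5 calls for cluster 10 over cluster 0 in the vehicle library. Acinar class 2 cells with 1000 detected genes or more gave 3 calls for FAKi over vehicle. The cause of these changes was not tested beyond what each setting leaves out. No paired analysis was possible because the lane numbers shared by the groups mark sequencing lanes of 1 library, the columns carry none of them, and no result comes from a test. Depth limited acinar class 2, where 20 of the 35 genes had 100 UMIs over both libraries, and *Trib3* in most comparisons.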
